A study of Mus musculus with 8 samples.

Results

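The mitochondrial respiratory chain was followed in the livers of leptin-deficient mice, across 3 rates of leptin administration, through 91 microarray probes for nuclear genes of its subunits. Probes were taken by gene symbol: symbols that start with Nduf, Uqcr or Atp5, those with Cox and a numbered subunit name of complex IV, and Sdha, Sdhb, Sdhc, Sdhd, Cyc1 and Cycs. The 91 probes carry 75 symbols, among 25697 probes with 18120 symbols on the array. A probe was described as above background where its detection p-value was under 0.05 on at least 2 arrays, and this held for 83 of the 91 probes (69 symbols) and for 13760 of all probes.

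Liver RNA came from adult male ob/ob mice, which by the series title all carry the obese mutation and so make no functional leptin, the controls included. Leptin was given for 12 days at 0 ng/hr (controls, arrays 1 to 3), 12.5 ng/hr (arrays 4 and 5) or 25 ng/hr (arrays 6 to 8), and the route is not given in the sources used here. Groups follow the title, source and dose fields of the labels. The agent field runs the other way, naming leptin for the 0 ng/hr arrays and no treatment for the 25 ng/hr arrays, so every direction rests on the dose field being right. Arrays lie on a single chip in the order of dose, and chip position and dose cannot be told apart. The labels do not say whether each array holds RNA of its own animal, and a p-value here covers no more than the spread among the 8 samples.

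The respiratory chain of the inner mitochondrial membrane passes electrons from NADH (complex I) and succinate (complex II) through ubiquinone to complex III, then by cytochrome c to complex IV, which reduces oxygen. Complexes I, III and IV pump protons, and complex V, the ATP synthase, uses the resulting gradient to make ATP. The liver draws on the chain to oxidise fatty acids and to power glucose, urea and protein synthesis. Most subunits are encoded in the nucleus, often under promoters that bind the nuclear respiratory factors NRF1 and NRF2 (an ETS factor) or YY1.

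Arrays had mean unscaled intensities of 456 to 531.7 and between 12094 and 12783 probes above background. Normalized log2 signals correlated across probes with r from 0.988 to 0.993 within groups and from 0.98 to 0.992 between groups. The liver label was checked against hepatocyte genes: Apoa1, Ttr, Cps1 and Serpina1a had log2 signals from 12.78 to 15.03, whereas the probes of Alb and Tat were above background on 0 arrays, so a probe without signal does not show that its gene is silent. In bulk tissue, fewer cells of a type and less RNA per cell cannot be told apart. Kupffer cell and macrophage markers were higher at 25 than at 0 ng/hr. Their 8 probes of 4 genes had a summed normalized signal of 1864 to 2017 in controls, 2633 to 3085 at 12.5 ng/hr and 3011 to 3291 at 25 ng/hr, and 4 of the 8 rose for 25 against 0 ng/hr (smallest adjusted p = 0.0302, limma), where 0.858% of all probes passed. That count of 4 was 1 without array 1, 2 without array 2, 4 without array 8 and 0 without array 3, 4, 5, 6 or 7, and all 8 differences stayed above 0 in each case. For 12.5 minus 0 and 25 minus 12.5 ng/hr 0 of the 8 passed (smallest adjusted p = 0.151 and 0.257). The 4 probes of stellate cell and fibroblast markers summed to 7140 to 9795 in controls, 9803 to 10252 at 12.5 ng/hr and 5440 to 7043 at 25 ng/hr, where Col1a1 fell against 12.5 ng/hr (adjusted p = 0.0219). Col1a1 no longer passed without array 4 (adjusted p = 0.173), 5 (0.21), 6 (0.0923), 7 (0.0665) or 8 (0.0649). For 25 minus 0 ng/hr none of the 4 probes passed in limma's test (smallest adjusted p = 0.185). Their log2 differences ran from -0.71 to 0.38, with 1 of the 4 above 0. The part of these cells in the respiratory chain values was not tested.

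Promoter sequence from RefSeq (assembly GRCm38.p6, 250 bases before to 50 bases after the annotated start, read 5′ to 3′ on the gene's strand) was matched for 61 of the 75 genes, 5 of them with more than 1 start. Letters of 3 motifs were searched on both strands: for NRF1 the letters GCGCA and GCGC with any 1 base between them, for ETS factors CCGGAAG, and for YY1 ATGGCGG. The NRF1 letters were found in 14 of 61 genes (23.0%), against 5.19% of 27025 genes in the table and 10.8% of the 7860 genes with a probe above background. The ETS letters were found in 17 (27.9%, against 9.93% and 19.0%) and the YY1 letters in 10 (16.4%, against 4.69% and 8.99%). At least 1 of the 3 was present in 34 (55.7%, against 17.3% and 33.0%). Such a match describes letters and does not show a bound site. Only exact letters were counted, so a promoter without a match may still hold a variant of a motif. Promoters of 4 genes are printed because their members come up repeatedly below, 3 of them with a match and that of Cycs without one. Capitals mark the matched letters, and CTTCCGG is the ETS motif read on the other strand.
Ndufa5 (chr6:24527477-24527776, minus strand): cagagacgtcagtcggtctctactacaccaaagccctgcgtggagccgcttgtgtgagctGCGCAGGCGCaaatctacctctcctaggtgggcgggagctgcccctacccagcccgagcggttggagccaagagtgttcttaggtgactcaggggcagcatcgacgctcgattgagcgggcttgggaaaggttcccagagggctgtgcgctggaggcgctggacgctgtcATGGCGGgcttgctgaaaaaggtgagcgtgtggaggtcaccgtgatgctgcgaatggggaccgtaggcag
Sdhd (chr9:50603800-50604099, minus strand): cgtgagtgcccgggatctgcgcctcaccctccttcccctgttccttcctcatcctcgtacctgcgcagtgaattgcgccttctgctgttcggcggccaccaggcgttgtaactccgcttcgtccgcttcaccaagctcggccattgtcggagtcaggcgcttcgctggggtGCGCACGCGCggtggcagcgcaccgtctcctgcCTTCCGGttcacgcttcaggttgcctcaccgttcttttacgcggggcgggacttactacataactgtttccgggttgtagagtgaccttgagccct
Cox6a1 (chr5:115348909-115349208, minus strand): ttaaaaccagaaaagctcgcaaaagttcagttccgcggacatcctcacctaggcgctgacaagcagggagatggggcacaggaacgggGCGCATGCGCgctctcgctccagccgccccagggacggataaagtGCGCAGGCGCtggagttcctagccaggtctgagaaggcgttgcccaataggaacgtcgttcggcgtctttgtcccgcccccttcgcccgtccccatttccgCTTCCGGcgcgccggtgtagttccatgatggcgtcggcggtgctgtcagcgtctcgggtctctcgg
Cycs (chr6:50566520-50566819, minus strand): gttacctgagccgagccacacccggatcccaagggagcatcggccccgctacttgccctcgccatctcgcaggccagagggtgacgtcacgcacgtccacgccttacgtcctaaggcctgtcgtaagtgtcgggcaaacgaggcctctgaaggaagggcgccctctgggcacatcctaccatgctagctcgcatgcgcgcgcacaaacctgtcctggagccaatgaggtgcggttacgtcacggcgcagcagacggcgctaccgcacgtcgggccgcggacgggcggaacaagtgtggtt
In Ndufa5, a complex I subunit, the NRF1 letters begin at position -190 and the YY1 letters at -20, counted from the start. In Sdhd, a membrane anchor of complex II, the NRF1 and ETS letters begin at -79 and -46. Cox6a1, the liver form of a complex IV subunit, has the NRF1 letters at both -162 and -117 and the ETS letters at -16. The 33 genes with a match and a measured probe had a median log2 difference of -0.06 for 25 minus 0 ng/hr, with 14 above 0, and the 26 without one had -0.04, with 11 above 0.

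The probes above background comprised 37 of complex I, 5 of complex II, 7 of complex III, 2 of cytochrome c, 13 of complex IV, 16 of complex V and 3 of genes that share a name stem but are not core subunits. The last are Ndufaf1, an assembly factor of complex I, Cox7a2l, which takes part in joining complexes III and IV, and Atp5s, a coupling factor of the ATP synthase. Ndufa4 is counted with complex I by its name, although later work places its protein in complex IV. Below background on every array were Cox6a2 and Cox8b, the forms of striated muscle, Cox4i2, a form best known from lung, Cox8c, a testis form, Ndufs1, Atp5k and a probe each of Sdhc and Atp5j, which have others above background. Sdha was not analysed here. The rule does not take 22 further probes of 14 related genes that the array lists under other names, such as Uqcr10, Ndufv3, Ndufa12 and Ndufa13.

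**Figure D1:**
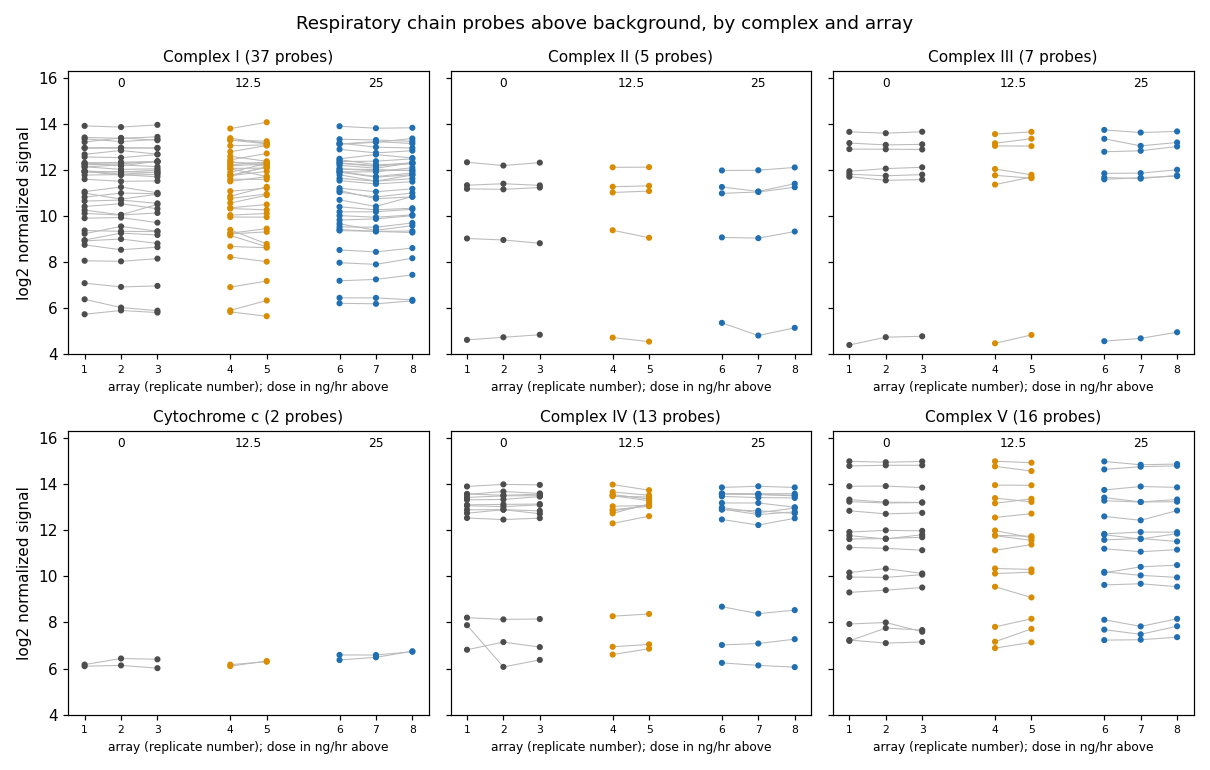
Normalized log2 signal (vertical axis) of every respiratory chain probe above background on each of the 8 arrays (horizontal axis), by complex; grey, orange and blue points are 0, 12.5 and 25 ng/hr, and thin lines join a probe's arrays within a group. The levels of most probes are close to flat across doses, both cytochrome c probes are highest on the 25 ng/hr arrays, and 1 complex IV probe, Cox7a1, is high on array 1 alone.

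For 25 against 0 ng/hr, no respiratory chain probe passed the test. In limma's test, with Benjamini-Hochberg adjustment over all 13760 probes, 0 of 83 had an adjusted p under 0.05, where 0.858% of all probes had one (118). That last count ran from 0 without array 6 to 194 without array 8, and was 39, 22, 1, 14, 14 and 5 without arrays 1, 2, 3, 4, 5 and 7, while the members' count was 0 in each case. The smallest adjusted p among the members was 0.0923, for Ndufab1. At an unadjusted p under 0.05 there were 9 of 83 (10.8%), against 17% of all probes. The 9 include an Sdhb probe that passed the detection filter through 25 ng/hr arrays alone. All 3 arrays at 25 ng/hr lay above all controls for 12 probes (14.5%, against 11.4% of all) and below them for 11 (13.3%, against 11.2%). The log2 differences had a median of -0.01 (all probes 0.00) and ran from -0.63 to 0.45, with 39 above 0 and 44 below, and 50.4% of all probes were above 0.

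The differences were small in size as well as below the threshold. Their median absolute log2 value was 0.10, against 0.14 over all probes. The 95% interval of the difference lay within 1.5-fold either way for 76 of 83 probes (91.6%, against 74.9% of all probes) and within 2-fold for 82, all but Cox7a1. The 7 probes whose interval reached beyond 1.5-fold were those of Cox7a1, Cox7a2, Cycs, Ndufab1, Ndufb2, Ndufb4 and Sdhb. Respiratory chain probes also had a smaller spread between arrays of a group, with a median residual SD of 0.10 log2 units against 0.16 over all probes. These comparisons with all probes, here and below, were not matched for signal. A mean log2 signal of 10 or over was held by 60 of the 83 members, against 1981 of all 13760 probes. The part of signal in the smaller differences and spread was not tested.

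**Figure D2:**
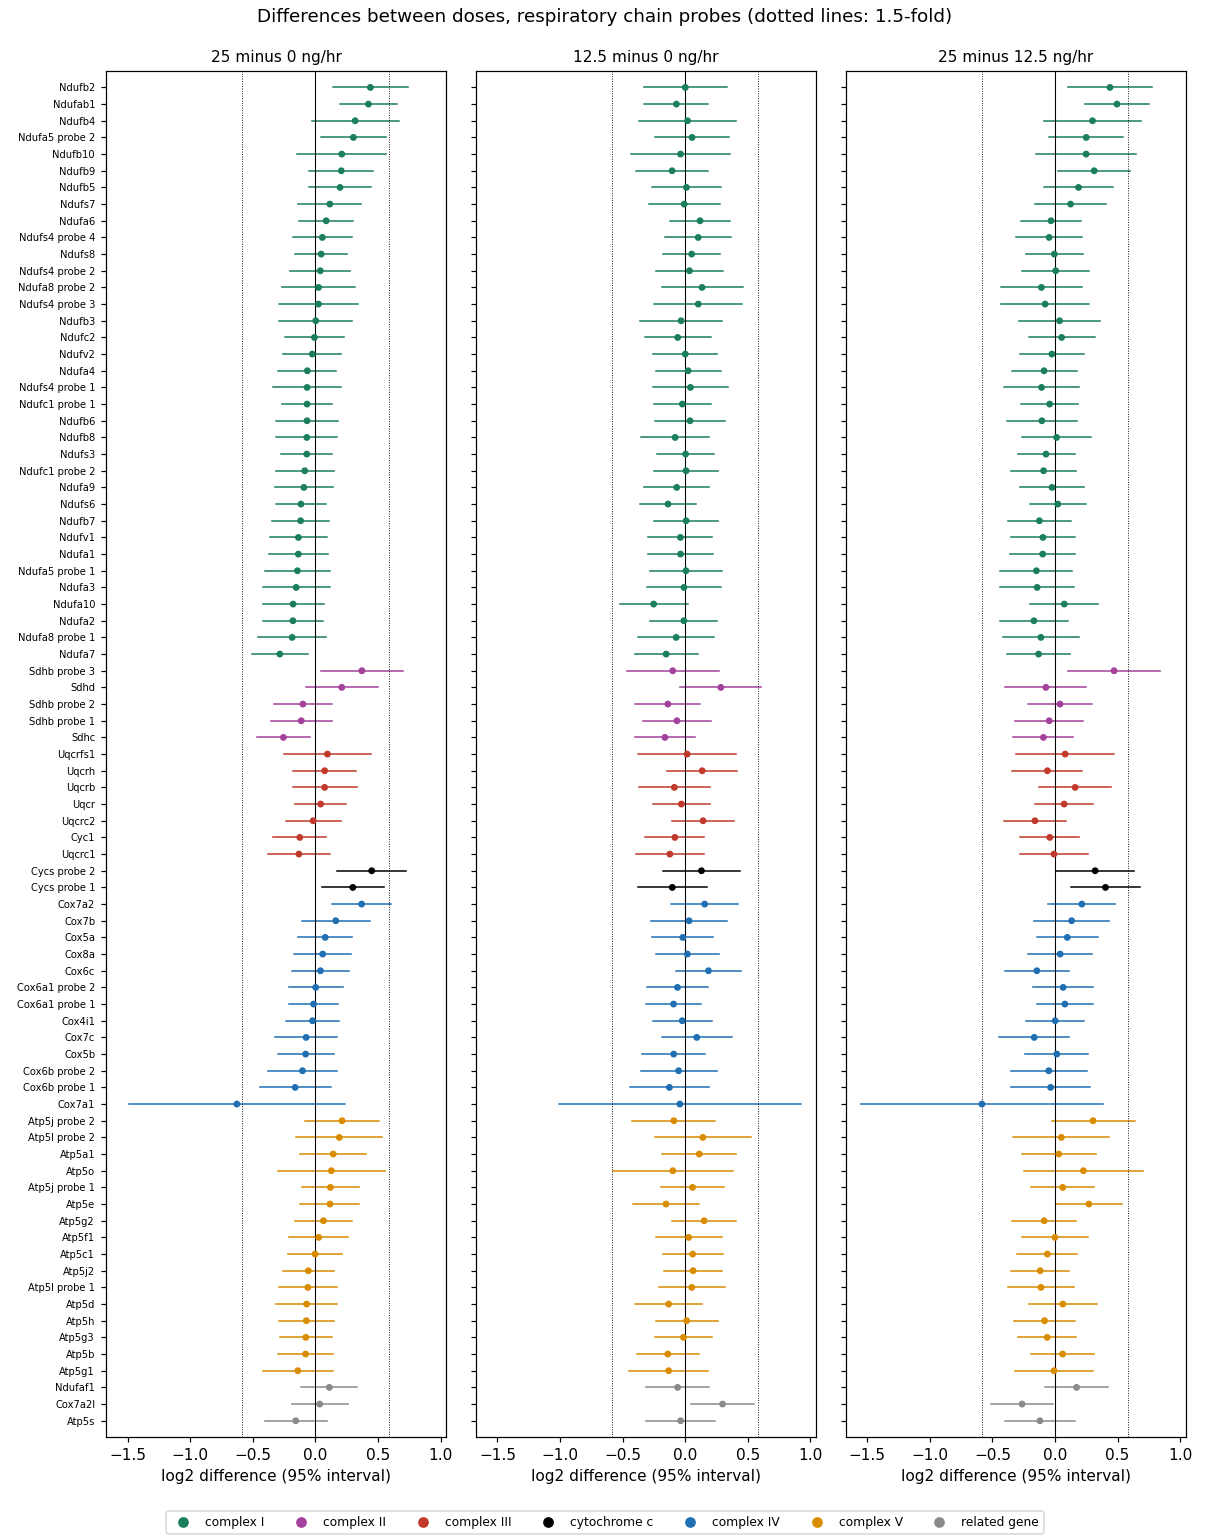
Log2 difference with its 95% interval (horizontal axis) for the respiratory chain probes (rows, coloured by complex, ordered within each by the first panel) in the 3 comparisons of leptin doses; dotted lines mark 1.5-fold. Most intervals cross 0 and stay inside the dotted lines, and the interval of Cox7a1 is the widest in each panel.

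Complex I takes electrons from NADH through the flavoprotein and iron-sulfur subunits of its N and Q modules, whereas most Ndufb subunits lie in the distal membrane arm. Over its 37 probes the median log2 difference for 25 minus 0 ng/hr was -0.06, with 15 above 0. Ndufv1, which binds the flavin, had -0.14 (95% interval -0.36 to 0.09), and Ndufa9, an accessory subunit near the quinone site, -0.09 (-0.32 to 0.14). The 10 Ndufs probes, a group by name that is not limited to the electron path, had a median of -0.01 and ran from -0.12 to 0.12. By name group, the 13 Ndufa probes, which include Ndufab1 at 0.42, had a median of -0.14 with 4 above 0. The 9 Ndufb probes had a median of 0.20 with 6 above 0. Most Ndufb probes had a mean log2 signal under 10 and most Ndufa probes one over it, a division that goes with the sign, as described below. The Ndufb probes over 10 were those of Ndufb3 and Ndufb8, with 0.00 and -0.07.

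Ndufab1, the mitochondrial acyl carrier protein that is also a complex I subunit, had the smallest adjusted p of the members. Its log2 signal was 5.74, 5.91 and 5.82 in controls, 5.84 and 5.66 at 12.5 ng/hr and 6.22, 6.19 and 6.32 at 25 ng/hr. All 25 ng/hr arrays were higher than all others, and the other groups overlapped. The difference for 25 minus 0 ng/hr was 0.42 (SE 0.10, 95% interval 0.20 to 0.65, adjusted p = 0.0923 in limma's test), or 1.34-fold. Its size depended on the processing: over the 16 alternatives named below it ran from 0.22 to 0.465, and the authors' group means gave a ratio of 1.16. Ndufb2, a small membrane arm subunit, read 8.92, 9.0 and 8.81 in controls, 9.16 and 8.67 at 12.5 ng/hr and 9.37, 9.34 and 9.35 at 25 ng/hr. Here too the highest group stood clear, while the arrays at 12.5 ng/hr lay on either side of the controls. Its difference was 0.44 (SE 0.13, interval 0.14 to 0.74, adjusted p = 0.148).

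Ndufa7, an accessory subunit, had the lowest difference of complex I. Its log2 signal was 11.78, 11.80 and 11.70 in controls, 11.50 and 11.71 at 12.5 ng/hr and 11.54, 11.39 and 11.49 at 25 ng/hr. Arrays at 25 ng/hr lay below all controls, with a difference of -0.28 (SE 0.10, interval -0.51 to -0.06, adjusted p = 0.199), and the 12.5 ng/hr arrays overlapped both groups. Ndufb4, whose log2 signal in controls ran from 5.90 to 6.39, had a difference of 0.32 (SE 0.15, adjusted p = 0.338), and its highest control lay within the 6.37 to 6.45 of the 25 ng/hr arrays. Ndufa10 was at 12.68, 12.84 and 12.69 in controls, 12.59 and 12.38 at 12.5 ng/hr and 12.48, 12.67 and 12.52 at 25 ng/hr. All treated arrays of Ndufa10 were lower than all controls, by 0.25 at 12.5 ng/hr (SE 0.12, adjusted p = 0.481) and by 0.18 at 25 ng/hr (SE 0.11, adjusted p = 0.446).

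Complex II, the succinate dehydrogenase, also works in the citric acid cycle. Sdhc, a heme-binding membrane anchor, read 12.33, 12.19 and 12.32 in controls, 12.11 and 12.12 at 12.5 ng/hr and 11.98, 11.99 and 12.11 at 25 ng/hr. Controls were higher than all treated arrays, and the difference for 25 minus 0 ng/hr was -0.26 (SE 0.09, interval -0.47 to -0.04, adjusted p = 0.216). Sdhb, the iron-sulfur subunit, has 3 probes that differ widely in signal. With log2 signals near 11 on all arrays, 2 of them had differences of -0.11 (interval -0.36 to 0.13) and -0.10 (-0.33 to 0.13). The other was detected on 2 arrays only, both at 25 ng/hr, and passed the filter through them alone. Its 25 ng/hr arrays overlapped with the controls, with array 7 at 4.82 and array 3 at 4.85, so no fold is given. Sdhd, the other anchor, had 0.21 (interval -0.08 to 0.50, adjusted p = 0.449).

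Complex III hands electrons from ubiquinol to cytochrome c, and 6 of its 7 probes had differences from -0.13 to 0.07, with a median of 0.01 and 3 above 0. Its catalytic subunit Cyc1 (cytochrome c1) had -0.12 (interval -0.34 to 0.09). The core proteins Uqcrc1 and Uqcrc2 had -0.13 (-0.38 to 0.11) and -0.02 (-0.24 to 0.20). The seventh probe, for the Rieske iron-sulfur protein Uqcrfs1, was detected on only 2 arrays and was not well above background on any control. For Uqcrfs1 no fold is given, since the bound falls under 1.

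Cytochrome c, the soluble carrier encoded by Cycs and also a trigger of apoptosis when released, had the highest difference of the 83 probes in the main fit. The probe drawn as Cycs probe 2 read 6.10, 6.14 and 6.02 in controls, 6.11 and 6.33 at 12.5 ng/hr and 6.37, 6.49 and 6.75 at 25 ng/hr. Cycs probe 1 read 6.17, 6.44 and 6.40 in controls, 6.17 and 6.30 at 12.5 ng/hr and 6.59, 6.59 and 6.73 at 25 ng/hr. With either probe the 25 ng/hr arrays lay above all others. In the same order, differences were 0.45 (SE 0.12, interval 0.17 to 0.73, adjusted p = 0.123) and 0.30 (SE 0.11, interval 0.05 to 0.54, adjusted p = 0.210). Their size and rank depended on the processing. Over the alternatives named below they ran from 0.253 to 0.531 and from 0.16 to 0.348. The authors' group means gave ratios of 1.19 and 1.12, below those of Ndufb2 (1.30) and Cox7a2 (1.24). Both read transcripts of 1 gene in the same RNA, so they are not independent.

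Complex IV, cytochrome c oxidase, had a median difference of -0.01 over 13 probes. Its nuclear core around the catalytic subunits gave values close to 0, with Cox4i1 at -0.02 (interval -0.23 to 0.19), Cox5a at 0.08 (-0.14 to 0.29) and Cox5b at -0.08 (-0.30 to 0.15). Cox6a1, the liver form, had -0.01 (-0.21 to 0.18) and 0.00 (-0.21 to 0.22) with its probes, and Cox8a, the ubiquitous form of its family, 0.06 (-0.17 to 0.28). Cox7a2, the liver form of subunit VIIa, read 8.21, 8.13 and 8.15 in controls, 8.27 and 8.37 at 12.5 ng/hr and 8.68, 8.38 and 8.53 at 25 ng/hr. Its groups did not overlap and followed the order of dose, although array 5 at 8.37 and array 7 at 8.38 nearly met. Sdhc was ordered by dose in the other direction. The share of all probes ordered by dose is not given here. The difference for 25 minus 0 ng/hr was 0.37 (SE 0.11, interval 0.13 to 0.61, adjusted p = 0.136), and for 12.5 minus 0 ng/hr it was 0.16 (SE 0.12, adjusted p = 0.679).

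Cox7a1, the form of subunit VIIa found mainly in heart and skeletal muscle, had the lowest difference of the set and the widest error. It read 7.88, 6.07 and 6.38 in controls, 6.61 and 6.86 at 12.5 ng/hr and 6.25, 6.14 and 6.06 at 25 ng/hr. Array 1 stood far above the rest, and the other controls lay among the treated arrays. The difference of -0.63 (SE 0.38, adjusted p = 0.452) became -0.08 (adjusted p = 0.869) without array 1, and that for 12.5 minus 0 ng/hr went from -0.04 to 0.51 (adjusted p = 0.386). Array 1 was also the highest in all 12 probes tested for 7 of 8 smooth muscle genes, a list made after this was seen, by a median of 2.25 log2 units over the mean of the other arrays. The summed normalized signal of this list was 7829 on array 1 and 1005 to 1576 on the others. The fat hormone gene Adipoq had a log2 signal of 6.77 on array 1 and 4.38 to 5.06 elsewhere. Of 7 skeletal and heart muscle genes, only Tnnc1 was above background, and it was not highest on array 1. The part of such tissue in the Cox7a1 values was not tested, and 7 of the 83 members were highest on array 1.

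Complex V probes were evenly divided, with 8 of 16 above 0 and a median of 0.01. The catalytic head subunits Atp5a1 (alpha) and Atp5b (beta) had 0.14 (interval -0.12 to 0.41) and -0.08 (-0.30 to 0.14). Atp5g1, Atp5g2 and Atp5g3 encode the same mature c subunit of the membrane ring and had -0.14 (-0.42 to 0.14), 0.06 (-0.16 to 0.29) and -0.08 (-0.28 to 0.13). The highest value was that of a probe of Atp5j, coupling factor 6, with 0.21 (SE 0.13, adjusted p = 0.456), and the other had 0.12. Atp5g1 had the lowest.

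**Figure D3:**
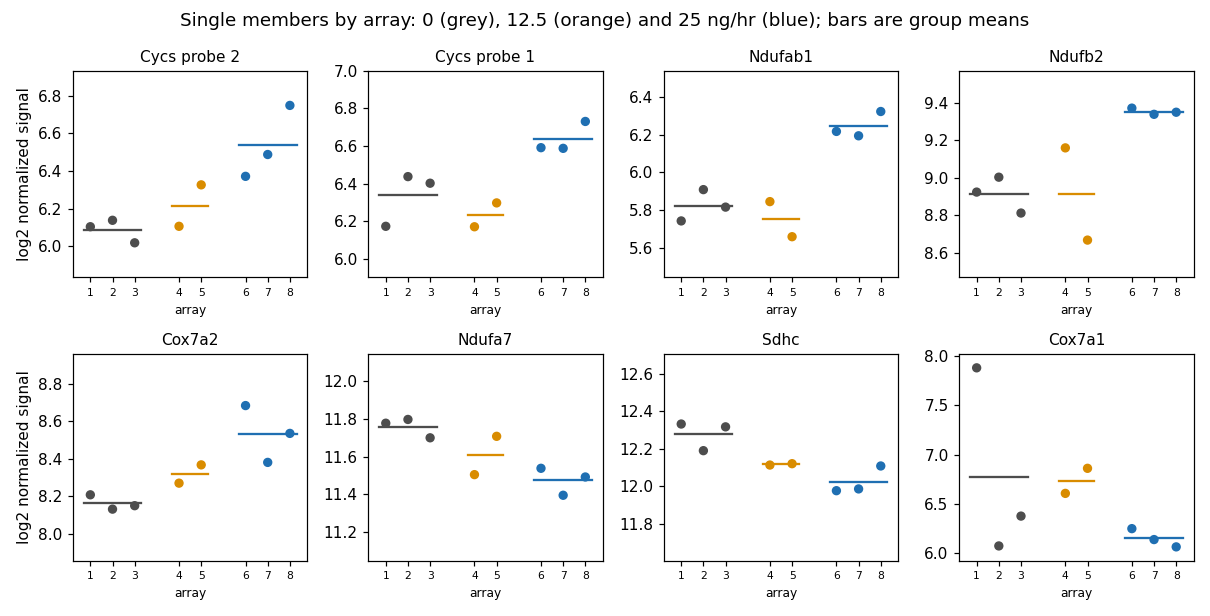
Log2 normalized signal (vertical axis, whose range differs between panels) on each array (horizontal axis) for 8 probes described in the text; points are single arrays at 0 (grey), 12.5 (orange) and 25 ng/hr (blue), and bars are group means. Both Cycs probes, Ndufab1, Ndufb2 and Cox7a2 have every 25 ng/hr array above every control, Ndufa7 and Sdhc have every 25 ng/hr array below, and Cox7a1 is set by array 1.

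For 12.5 against 0 ng/hr the members lay closer to 0. None of 83 passed in limma's test (smallest adjusted p = 0.374), as for all probes (0%), and at an unadjusted p under 0.05 there was 1 (1.2%), against 11.2% of all probes. Groups did not overlap for 9 higher probes (10.8%, against 14.4%) and 8 lower ones (9.64%, against 13.9%). The median difference was -0.01 (all probes 0.00), the median absolute difference 0.06 (all probes 0.13) and the range -0.25 to 0.30, with 39 above 0 (49.5% of all probes were). The 95% interval lay within 1.5-fold for 81 of 83 probes (97.6%, against 70.7% of all), the exceptions being Cox7a1 and Sdhd. Complex medians were 0.00 for I, -0.10 for II, -0.03 for III, -0.02 for IV and 0.02 for V.

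Cox7a2l, of the genes that are not core subunits, was the single probe with an unadjusted p under 0.05. It read 11.10, 11.02 and 11.18 in controls, 11.42 and 11.38 at 12.5 ng/hr and 11.25, 11.09 and 11.06 at 25 ng/hr. The 12.5 ng/hr arrays were higher than all others, and controls overlapped with 25 ng/hr. The difference was 0.30 for 12.5 minus 0 ng/hr (SE 0.11, interval 0.05 to 0.55, adjusted p = 0.374) and 0.03 for 25 minus 0 ng/hr (SE 0.10, adjusted p = 0.892). Sdhd read 9.03, 8.96 and 8.82 in controls, 9.39 and 9.06 at 12.5 ng/hr and 9.08, 9.04 and 9.33 at 25 ng/hr. All treated arrays of Sdhd lay above the controls, by margins as small as the spread within a group, with a difference of 0.28 (SE 0.14, interval -0.04 to 0.61, adjusted p = 0.499) at 12.5 ng/hr.

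The 2 arrays at 12.5 ng/hr differed more from each other in these genes than other replicates did. The median absolute difference between them over the 83 probes was 0.195 log2 units, against 0.08 for each pair of controls and 0.11 to 0.12 for pairs at 25 ng/hr. Over all probes the same pairs gave 0.167, 0.145 to 0.164 and 0.149 to 0.169, so that controls and 25 ng/hr arrays were more alike in the members than in all probes, and arrays 4 and 5 were not. Array 5 was over 0.2 higher in 22 members, led by Atp5o (0.56), Ndufb4 (0.43) and a Cox6b probe (0.41). Array 4 was over 0.2 higher in 14, led by Ndufb10 (0.61), Ndufb2 (0.49) and a probe of Atp5j (0.46). Together these are 43.4% of members, close to the 42.3% of all probes with as large a gap. With only these 2 arrays, the values at 12.5 ng/hr rest on the spread of the other groups.

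For 25 against 12.5 ng/hr, which uses the same arrays as the comparisons with the controls, 0 of 83 passed (0.407% of all probes did, 56 probes, or 0, 1, 13, 22 and 25 without arrays 4, 5, 6, 7 and 8), with a smallest adjusted p of 0.127. At an unadjusted p under 0.05 there were 8 (9.64%, against 12.8%). Groups did not overlap for 12 higher probes (14.5%, against 14.9%) and 8 lower ones (9.64%, against 15.8%). The 12 higher probes, and the 8 at an unadjusted p under 0.05, include the Sdhb probe that passed the filter through 25 ng/hr arrays alone. The median was -0.01 (all probes 0.01) with 38 above 0 (51.9% of all probes were), and 72 of 83 intervals (86.7%, against 68.8%) lay within 1.5-fold. Ndufab1 had the highest difference, 0.49 (SE 0.11, interval 0.24 to 0.75, adjusted p = 0.127). Cycs probes 2 and 1 had 0.32 (SE 0.14, adjusted p = 0.373) and 0.40 (SE 0.12, adjusted p = 0.223), and Atp5e, the epsilon subunit of the ATP synthase, had 0.27 (SE 0.12, adjusted p = 0.379).

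At 25 ng/hr the sign of a member's difference went with the strength of its probe's signal. A mean log2 signal of 10, chosen after the pattern was seen, divides the set into 23 probes under it and 60 at or over it. Of the 23, 19 were above 0 for 25 minus 0 ng/hr, with a median of 0.21. The exceptions were Atp5s, Cox7a1, Ndufb6 and Ndufb7. Probes of Sdhb and Uqcrfs1 among the 23 were above background through treated arrays only. Without these 2 the count was 17 of 21 and the median again 0.21. Of the 60, 20 were above 0, with a median of -0.07. All probes of the array showed little of this: 51% were above 0 under that signal (median 0.005) and 46.9% at or over it (median -0.01). Close to the division were Ndufs4 at 9.90 with a difference of 0.06, and Atp5g2 at 10.06, also with 0.06.

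Split by complex, these same probes were divided alike within complexes I and V, the sets with the most probes. This describes the pattern further and is not a second observation of it. Complex I had 8 of 10 probes above 0 under a signal of 10 (median 0.21) and 7 of 27 at or over it (median -0.07). Complex V had 4 of 4 (median 0.16) and 4 of 12 (median -0.06). Complex IV had 2 of 3 (median 0.16, lowest -0.63) and 4 of 10 (median -0.02). In the 3 genes that are not core subunits the order was the other way, with 0 of 1 (-0.16) and 2 of 2 (median 0.07). For 12.5 minus 0 ng/hr the medians were 0.01 and -0.02, with 13 of 23 and 26 of 60 above 0. For 25 minus 12.5 ng/hr they were 0.23 and -0.04, with 17 of 23 and 21 of 60 above 0 (15 of 21 without the Sdhb and Uqcrfs1 probes). Without array 4 the former fell to 0.09, and without array 7 the median of the 60 probes was 0.00 for this comparison and -0.03 for 25 minus 0 ng/hr. Across the 83 probes, Spearman's rho between mean signal and difference was -0.44 for 25 minus 0 ng/hr and -0.12 for 12.5 minus 0 ng/hr. Across all 13760 probes it was -0.03 and -0.01. These are descriptions across probes that share the same arrays, and carry no test.

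**Figure D4:**
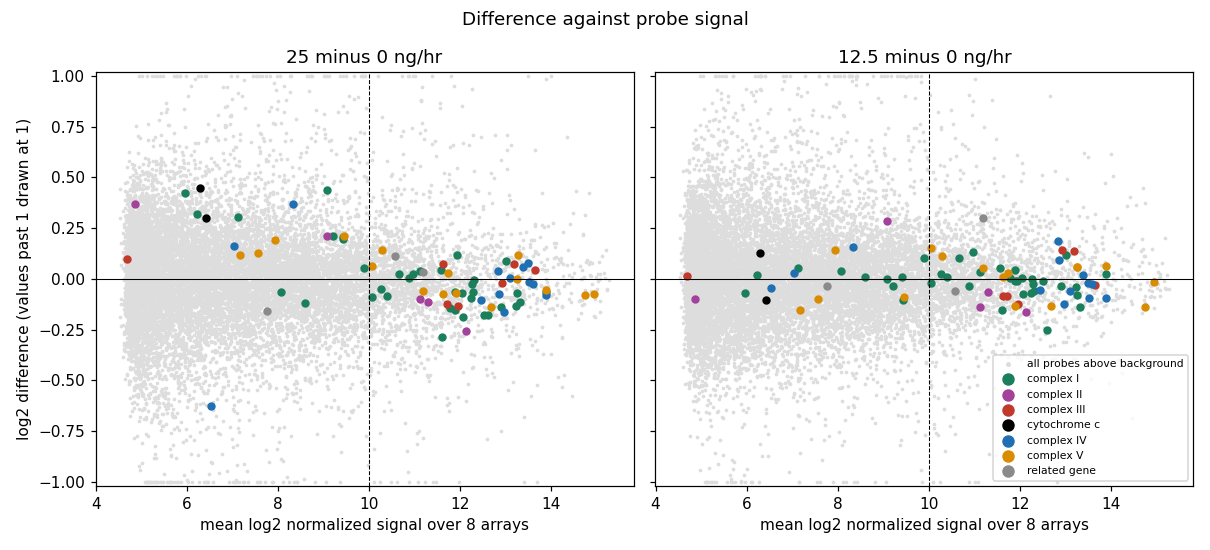
Log2 difference (vertical axis, values past 1 drawn at 1) against mean log2 normalized signal over 8 arrays (horizontal axis) for all 13760 probes above background (light grey) and the 83 respiratory chain probes (coloured by complex), for 25 minus 0 ng/hr (left) and 12.5 minus 0 ng/hr (right); the dashed line marks a signal of 10. On the left, 19 of the 23 members left of the dashed line are above 0 and 20 of the 60 right of it; on the right the members lie around 0 on both sides.

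A probe's signal depends on how well it binds as well as on transcript number, and some genes have probes of both strong and weak signal. Ndufa5 had a difference of -0.14 (interval -0.40 to 0.11) with a probe of mean log2 signal 11.79 and 0.30 (0.04 to 0.57, adjusted p = 0.230) with one of 7.12. Atp5l, subunit g of the ATP synthase, had -0.06 at a signal of 11.19 and 0.19 at 7.95. Atp5j was above 0 with both probes, 0.12 at 13.26 and 0.21 at 9.46. Ndufs4 had -0.07, 0.04, 0.02 and 0.06 at signals of 11.89, 11.13, 10.67 and 9.90. Genes with 2 probes that both had signals over 10 gave closer values, such as -0.16 and -0.10 for Cox6b and -0.07 and -0.08 for Ndufc1, although Ndufa8 gave -0.19 and 0.03.

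Array by array, the median deviation of the 23 probes from their own means was -0.13, -0.06 and -0.10 in controls, -0.12 and 0.02 at 12.5 ng/hr and 0.11, 0.04 and 0.21 at 25 ng/hr. For the 60 probes it was 0.02, 0.02 and 0.04, then -0.02 and 0.03, then 0.01, -0.08 and -0.01. The 25 ng/hr arrays were the 3 highest in the former, with array 8 furthest out. In the latter array 7 was the lowest, and the rest lay close together.

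**Figure D5:**
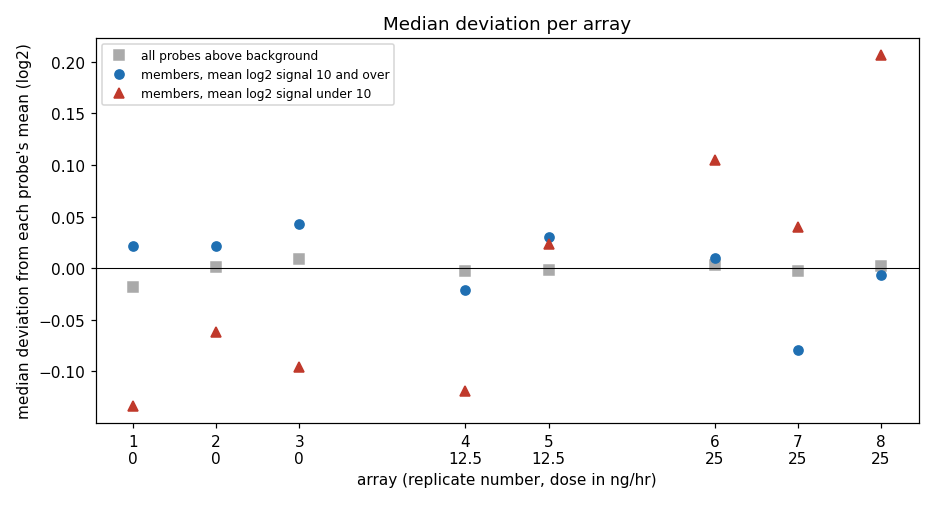
Median deviation of log2 signal from each probe's own mean over the 8 arrays (vertical axis), per array (horizontal axis, with its dose), for 23 members with a mean log2 signal under 10 (red triangles), 60 members at or over it (blue circles) and all probes above background (grey squares). The red triangles lie above 0 on all 25 ng/hr arrays and below 0 on all controls, the blue circles lie between -0.08 and 0.04, and the grey squares stay within 0.02 of 0.

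Other mitochondrial genes were read from lists chosen by function. No probe of the pathway lists passed in any of the 3 comparisons. For 25 minus 0 ng/hr, 44 probes of 30 assembly factor genes had a median difference of 0.04 with 28 above 0, and 97 probes of 70 genes of the mitochondrial ribosome, which translates the subunits encoded in mitochondrial DNA, 0.06 with 69 above 0. Probes for import and inner membrane shape had a median of 0.07 (14 of 21 above 0), those of other electron donors and carriers 0.02 (17 of 33) and those for control of mitochondrial biogenesis 0.01 (8 of 15). The 19 probes of citric acid cycle genes, whose dehydrogenases feed complex I, had a median of -0.17 with 3 above 0 and a smallest adjusted p of 0.0965. At 12.5 ng/hr the medians of these lists ran from -0.06 to 0.03. The 13 subunits encoded in mitochondrial DNA were not analysed here.

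In the authors' deposited table of group means, ratios over the same 83 probes ran from 0.653 to 1.30 for 25 over 0 ng/hr, from 0.850 to 1.24 for 12.5 over 0 ng/hr and from 0.735 to 1.26 for 25 over 12.5 ng/hr.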

How the data were processed

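Liver RNA of 8 samples was measured on Illumina arrays, 1 per sample. RNA was extracted with Trizol and labelled with biotin, per the labels' protocols. How the arrays were scanned, and the genome build, is not given in the sources used here. One deposited table holds an intensity per probe and array, linear and unscaled, together with its detection p-value. In another deposited table the authors multiplied each array's intensity by a factor of 0.927 to 1.08, to a common mean of 493, and added group means and the ratio of those means. Its header gives the middle group 3 arrays, but the means equal those of the 2 labelled 12.5 ng/hr. The deposited value table of the series repeats these scaled intensities, without log2, centring or direction, with column medians from 68.4 to 74.15.

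The neqc function of limma (version 3.58.1, run in R 4.3.3) turned the unscaled intensities into normalized log2 signals: it subtracts a background estimated from the detection p-values, adds an offset of 16 and quantile-normalizes. The feature was the probe. A single fit of all arrays with 3 group means (lmFit, eBayes) gave 3 contrasts, with Benjamini-Hochberg adjustment over 13760 probes and a threshold of 0.05, and every adjusted p is from it unless an alternative or a left-out array is named. It was tested on simulated data. Intervals are 95% intervals of the fit, and the number of arrays limits their precision. For a probe not above background in the dimmer group, a lower bound on the fold was computed. It sets the brighter mean against the mean, per array, of the lowest detected signal or of the probe's own where higher. Symbols are those of the deposited annotation, matched to an NCBI table of GRCm38.p6 for names only (24797 of 25697 probes, and all 91 of the respiratory chain).

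Probes named were any that passed, fixed core subunits, tissue forms, and per complex the highest and lowest differences and signals; others were named after their values were seen, and 1 gene's own values are not reported here. Members and lists were chosen with earlier results of these data known. Lists covered 7 mitochondrial pathways and the cell types hepatocyte, Kupffer, endothelium, stellate, red blood cell, pancreas, skeletal or heart muscle, brown fat and white fat, with smooth muscle and the division by signal added after the values were seen. Alternatives were no background correction, median scaling, the authors' scaled intensities, other detection filters, 1 probe per gene, a trended prior, only the groups compared and leaving out each array. Figures used matplotlib version 3.10.9 in Python version 3.11.15.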

Additional observations from a re-analysis of the deposited data

How the results depend on the processing

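The count of respiratory chain probes that passed was 0 in all 16 alternatives for each comparison, with smallest adjusted p-values of 0.0606 for 25 minus 0, 0.234 for 12.5 minus 0 and 0.0931 for 25 minus 12.5 ng/hr. The median difference over the members moved beyond the spread between arrays with median scaling, to -0.054 for 25 minus 0 and -0.067 for 25 minus 12.5 ng/hr. Under that scaling the medians of all probes were -0.056 and -0.083 (0.002 and 0.008 otherwise). Leaving out each array in turn gave members' medians from -0.041 to 0.005 for 25 minus 0, from -0.034 to 0.017 for 12.5 minus 0 and from -0.05 to 0.026 for 25 minus 12.5 ng/hr. For 25 minus 0 ng/hr the median of members with a signal of 10 and over then ran from -0.071 to -0.027, and that of members under it from 0.146 to 0.254. Of 1986 recomputed differences of 42 named probes, 2 reversed, both near 0: Uqcrb for 25 minus 12.5 ng/hr without array 4 (-0.001, in a range to 0.322) and Uqcrc1 for 12.5 minus 0 ng/hr without array 5 (0.003, in a range from -0.249). Counts over all probes varied more. With no background correction, the authors' scaled intensities and a trended prior they were 264, 257 and 293 for 25 minus 0 ng/hr (118 as reported), and 100, 134 and 104 for 25 minus 12.5 ng/hr (56). For 12.5 minus 0 ng/hr (0) they were 8 and 18 with the first pair of settings. With only the 2 groups compared they were 14 for 25 minus 0 and 3 for 12.5 minus 0 ng/hr. Leaving out each array gave 0 to 194 for 25 minus 0, 0 to 2 for 12.5 minus 0 and 0 to 70 for 25 minus 12.5 ng/hr. The cause was not tested. No paired analysis was possible because the groups share no replicate numbers. Signal over background limits Uqcrfs1, an Sdhb probe and the 8 probes not above background.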

Other observations

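Marker lists of other cell types held the following for 25 minus 0 ng/hr, with no probe past the threshold. Endothelial markers had a median log2 difference of 0.01 over 4 probes, red blood cell markers -0.19 over 3 and hepatocyte markers 0.19 over 5. Pancreas markers had 0.025 over 2 probes, and smooth muscle probes a median of -0.76, with array 1 the highest of all arrays. Cidea, a brown fat marker, had -0.35, which became 0.06 (adjusted p = 0.913) without array 8. Adipoq, a white fat marker, had -0.57, with a log2 signal of 6.77 on array 1 and 4.38 to 5.06 on the others. Without array 1, or without array 7, its probe was no longer above background on 2 arrays. Tnnc1, the one striated muscle gene above background, had -0.17 (adjusted p = 0.599).

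Some subunit values were not described above. Atp5o, which encodes the stalk protein that confers oligomycin sensitivity on the ATP synthase, read 7.20, 7.76 and 7.67 in controls, 7.16 and 7.72 at 12.5 ng/hr and 7.69, 7.49 and 7.84 at 25 ng/hr, so that its spread within each group exceeded the differences between groups. Uqcrc2, a core protein of complex III, read 12.90, 12.90 and 12.89 in controls and 13.04 and 13.03 at 12.5 ng/hr. Its treated arrays at 12.5 ng/hr were above the controls by 0.14 (SE 0.11, adjusted p = 0.680 in limma's test), and at 25 ng/hr, with 12.79, 12.83 and 13.02, the arrays lay on either side of the controls. Ndufa6, a complex I subunit, had an SD of 0.01 in controls (n = 3) and differences of 0.12 at 12.5 ng/hr and 0.09 at 25 ng/hr, with adjusted p-values of 0.744 and 0.704.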
